A study of Mus musculus with 12 samples.

Results

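Csgalnact1 encodes chondroitin sulphate N-acetylgalactosaminyltransferase 1, and its hippocampal signal is followed here in mice lacking CREB and CREM and in control mice, 1 hour after saline or kainate. The gene was taken as every probe set that the platform annotation gives the symbol Csgalnact1. It is 1 of 5928 named genes on the array, read by 2 of 11868 probe sets, and 1 of the 2 cleared the filter on dim signal, which asks for log2 4 or more on 3 or more of the 12 arrays. The gene was chosen by its mutant minus control difference on these same arrays, so its genotype differences are given as a description with no test.

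The 12 arrays (array C of the Affymetrix murine U74 set) form 4 groups of 3, which are mutant mice after saline, control mice after saline, mutant mice after kainate and control mice after kainate. Kainate, an agonist of ionotropic glutamate receptors that provokes seizures, was given intraperitoneally at 20 mg/kg. The mice were littermates of both sexes aged 5 to 6 weeks, housed singly and handled for 5 days. Each array holds RNA pooled from 3 animals, so the spread between arrays is a spread between pools. The labels call the genotypes only mutant and control; the title names the 2 missing factors, while the alleles, any Cre driver and the cells concerned are not stated in the labels.

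CSGalNAcT-1 works in the Golgi apparatus, where it adds the first N-acetylgalactosamine to the linker sugars of a core protein and so commits the chain to chondroitin rather than heparan sulphate. Chondroitin synthases then lengthen the chain, and sulphotransferases decorate it. In brain the chains sit on lecticans such as brevican and neurocan, and they build the perineuronal nets around certain neurons. CREB and CREM are related transcription factors that bind cyclic AMP response elements and act downstream of neuronal activity.

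Several arrays did not behave as their group did. The first principal component (53.2% of the variance) held mutant kainate replicate 3 apart from all else, and this array had an SD over probe sets of 1.52, against 1.71 to 1.78 on the other 11 arrays. The array labelled control kainate replicate 3 read 12.95 for the astrocyte gene Gfap. Its group's other arrays read 11.51 and 11.53, and the mutant saline arrays 12.23 to 13.00. Mutant kainate replicate 3 read 11.55 for Gfap, against 12.82 and 13.03 on its group's other arrays. Laptm5, a microglial gene, ran the same way, at 8.67 on mutant kainate replicate 3 and 10.44 on control kainate replicate 3, where the other mutant kainate arrays read 10.12 and 10.31 and the other control kainate arrays 9.64 and 9.57. Whether these 2 arrays carry each other's label was not tested, so the arrays are used as labelled and the kainate comparison is also given without both. On the second component (22.9%) the replicate 1 arrays lay at 10.8 to 14.4, mutant kainate replicate 3 at 9.05 and the other 7 arrays at -15.1 to 0.28, so values within replicate 1 and within replicates 2 and 3 are given. Creb1 and Crem, the deleted genes, were not lower in mutants on any probe set above the dim filter. Creb1 averaged 5.01 ± 0.09 in mutant saline and 4.88 ± 0.12 in control saline, then 4.90 ± 0.10 in mutant kainate and 4.85 ± 0.04 in control kainate (log2 level, SD, n = 3 each). Crem averaged 4.71 ± 0.11 and 4.46 ± 0.08 after saline and 4.57 ± 0.07 and 4.47 ± 0.09 after kainate, mutant before control. All mutant saline arrays (4.63 to 4.83) lay above all control saline arrays (4.37 to 4.51) for Crem, as on 29% of probe sets past the filter. The Crem probe set has the suffix _r_at, a class described below. Whether the Creb1 and Crem probes lie in the deleted parts is not given, so they check nothing about the labels.

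After saline, Csgalnact1 was 1.45-fold higher in mutant than in control hippocampus on its bright probe set. The mutant saline arrays read 6.51, 6.57 and 6.39 (log2 level, replicates 1 to 3), against 5.96, 5.88 and 6.01 on the control saline arrays. The groups did not overlap, and the lowest mutant array stood clear of the highest control array. All mutant saline arrays lay above all control saline arrays on 29% of the 3541 probe sets past the filter. Means were 6.49 ± 0.09 in mutants and 5.95 ± 0.07 in controls (SD, n = 3 each), a log2 difference of 0.54 ± 0.07 (standard error of the limma fit, as for every difference below). Pairs of arrays with the same replicate number differed by 0.54, 0.69 and 0.38, all towards the mutant. Replicate 1 alone gave 0.54 and the other replicate numbers 0.54, so it was as large on either side of the split between arrays.

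After kainate, the bright probe set read nearly alike in both genotypes. The mutant kainate arrays gave 5.98, 6.02 and 6.11, against 6.04, 5.91 and 5.94 on the control kainate arrays, and the groups overlapped. Means were 6.04 ± 0.07 in mutants and 5.96 ± 0.07 in controls (SD, n = 3 each), a log2 difference of 0.07 ± 0.07, or 1.05-fold. The same-numbered pairs gave -0.06, 0.11 and 0.16, so replicate 1 pointed the other way from replicates 2 and 3. Without the arrays labelled mutant kainate replicate 3 and control kainate replicate 3 the difference was 0.03 ± 0.08. The 4 group means thus ran from mutant saline, the highest, through mutant kainate and control kainate to control saline. The last 3 means lay 0.07 and 0.01 apart, against SDs of 0.07 each, while all 3 mutant saline arrays lay above the other 9 arrays. That last pattern was met by 93 of the 3541 probe sets past the filter (2.63%), and the reverse by 5 (0.141%).

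**Figure D1:**
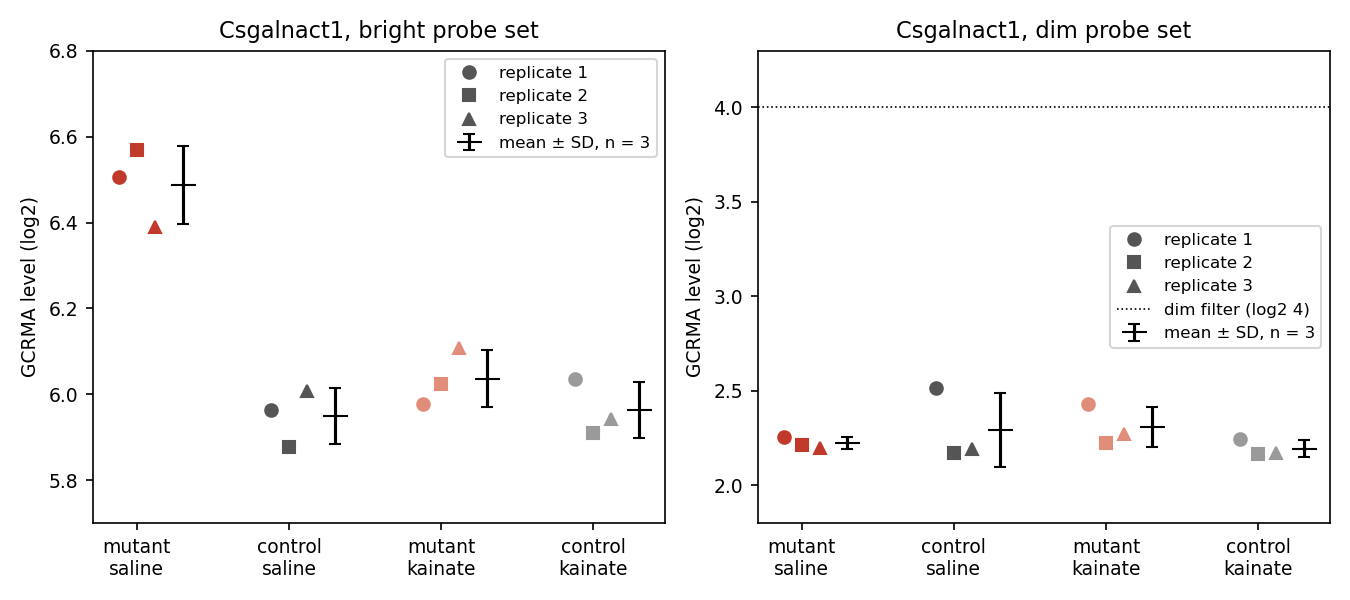
Csgalnact1 level (GCRMA, log2) on every array, with the bright probe set on the left and the dim one on the right; symbols mark replicate numbers and bars the mean ± SD of 3 arrays. The bright probe set reads 6.39 to 6.57 in mutant saline and 5.88 to 6.11 on the other 9 arrays, while the dim one stays at 2.16 to 2.52, below the filter at 4.

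The 2 probe sets of the gene did not show the same pattern. On the dim probe set the mutant saline arrays read 2.26, 2.21 and 2.20, against 2.52, 2.17 and 2.19 on the control saline arrays. The mutant kainate arrays read 2.43, 2.23 and 2.27, against 2.24, 2.16 and 2.17 in control kainate. Its highest values came from replicate 1 arrays, and the genotype difference was -0.07 after saline and 0.12 after kainate. Values this low lie under the dim level on every array, so they neither bear out nor contradict the bright probe set. Which stretch of the transcript each probe set reads is not given in the sources used here.

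Kainate was tested averaged over both genotypes, since that contrast is balanced over the genotypes and was not the one by which the gene was chosen. Csgalnact1 averaged 0.22 ± 0.05 lower on the log2 scale after kainate (-0.22, 95% interval -0.33 to -0.11; 0.859-fold) and did not pass over all probe sets (limma adjusted p = 0.297). In the same comparison 5 of 3541 probe sets passed (0.141%), all higher. An exact two-sided permutation test on the averaged difference, with treatment exchanged within genotype over 400 regroupings, gave p = 0.065, where the smallest possible is 0.005. With limma's array weights, which count arrays of different noise unequally, the difference was -0.23 and passed (limma adjusted p = 0.00164). In that fit 1018 probe sets passed in place of 5, and the estimation of the weights stopped before it converged. Without the array labelled control kainate replicate 3 the adjusted p was 0.643, and without mutant kainate replicate 3 it was 0.174.

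The averaged kainate difference came from the mutant arrays, which also carry the genotype difference. In mutant mice the kainate arrays lay 0.45 ± 0.07 below the saline arrays (-0.45), with same-numbered pairs at -0.53, -0.54 and -0.28 and no overlap. In these 2 groups the kainate arrays lay all below the saline arrays on 8.44% of the 3541 probe sets and all above on 1.67%. In control mice the difference was 0.01 ± 0.07, with pairs at 0.07, 0.03 and -0.06 and overlapping groups. The interaction, which is the genotype difference after kainate minus that after saline, was -0.47 ± 0.10. Both kainate differences and the interaction share the mutant saline arrays or their controls with the contrast that chose the gene, so they carry no test.

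Set beside the whole array, a separation of the saline groups was common and mostly upwards. All mutant saline arrays lay above all control saline arrays for 29% of the 3541 probe sets and beneath them for 5.11%, and the median difference over all of them was 0.04. After kainate the corresponding shares were 2.43% and 3.78%. By limma 0 probe sets (0%) passed for genotype after saline, with 428 at an unadjusted p under 0.05, and 0 (0%) passed after kainate, with 167. The saline difference of Csgalnact1 ranked 8 of 3541 from the top. In either direction 99 of the 3541 (2.8%) had a larger absolute difference, most of them downwards. Of the 444 other probe sets whose mean level lay within 0.5 of that of Csgalnact1, 2 had an upward saline difference as large. The 10th and 90th percentiles of the 444 were -0.41 and 0.19.

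The bright probe set belongs to a class that moved with it. The suffix _r_at is Affymetrix's mark for probe sets picked after some of its design rules were relaxed, and 750 of the 3541 probe sets carry it (21.2%). Their median genotype difference was 0.13 after saline and 0.08 after kainate, against 0.01 and -0.08 for the 1880 probe sets with a plain _at name. All mutant saline arrays lay above all control saline arrays on 54.5% of the _r_at probe sets and on 24.1% of the plain ones. Of the 93 probe sets on which mutant saline stood above all other arrays, 77 were of the _r_at class (82.8%) and 8 were plain (8.6%). Csgalnact1 had the largest saline difference of the 750. The other 749 reached at most 0.53, with a 90th percentile of 0.26. The part of this class-wide shift in the Csgalnact1 difference was not tested.

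**Figure D2:**
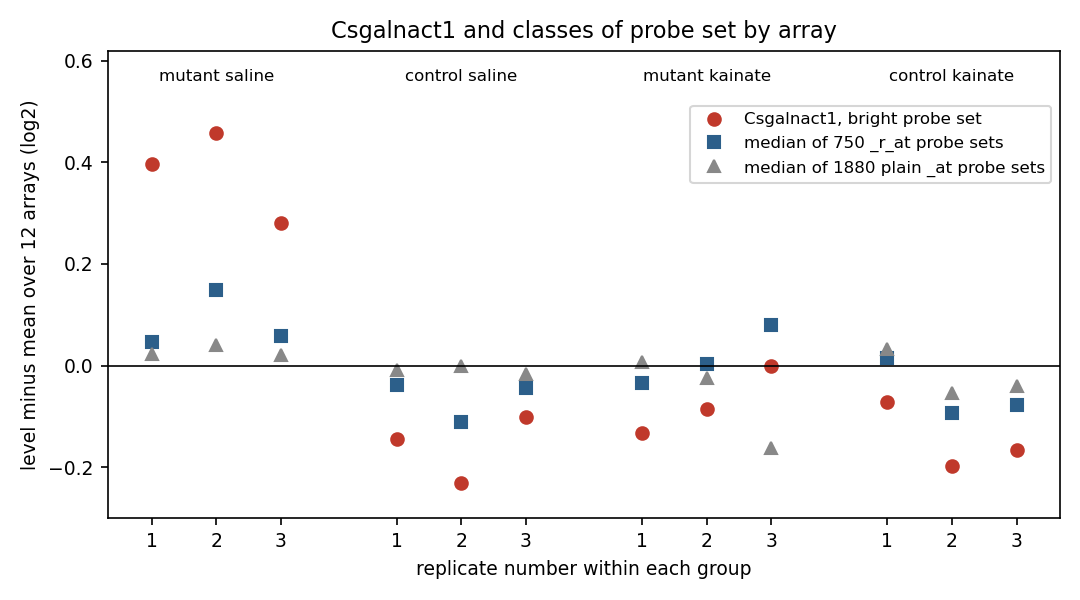
Level minus its own mean over the 12 arrays (log2), by array, for the bright Csgalnact1 probe set, for the median of 750 _r_at probe sets and for the median of 1880 plain _at probe sets. The _r_at median is 0.05, 0.15 and 0.06 on the mutant saline arrays and -0.04, -0.11 and -0.04 on the control saline arrays, in the same direction as Csgalnact1 at 0.40, 0.46 and 0.28 against -0.15, -0.23 and -0.10.

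Within each array the place of Csgalnact1 was read as the share of the 3541 probe sets below it, a measure that scaling an array cannot move. That share was 73.3%, 75.2% and 71.4% in mutant saline, against 66%, 64.6% and 67% in control saline, with no overlap. It was 66.3%, 69.7% and 78.4% in mutant kainate, against 66.6%, 66.1% and 66.6% in control kainate. The 78.4% is the highest of all 12 arrays and comes from mutant kainate replicate 3, the array with the lowest SD over probe sets (1.52). Quantile normalization, which gives all arrays 1 distribution, put Csgalnact1 at 6.91 on that array, and the genotype difference after kainate became 0.43 ± 0.22, against 0.61 ± 0.22 after saline. On the other mutant kainate arrays this step put Csgalnact1 at 5.88 and 6.15, against 5.90, 5.86 and 5.90 in control kainate. The genotype difference after kainate was thus small as deposited and larger after this step, which changes all 12 arrays. The larger value rests mostly on mutant kainate replicate 3, and the cause was not tested. With quantile normalization the averaged kainate difference was -0.05.

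The genes most like Csgalnact1 were sought by Pearson correlation over the 12 arrays among 2386 other genes. They were Ep400 (r = 0.94), which encodes a chromatin remodelling ATPase, Frg1 (r = 0.93), Smim27 (r = 0.92), 2900092C05Rik (r = 0.92) and Hdgfl1 (r = 0.92). After the mean of the arrays of the same replicate number was taken off, they were Smim27 (r = 0.96), Wnt10b, a secreted Wnt ligand (r = 0.95), Thap2 (r = 0.94), Ep400 (r = 0.94) and 2900092C05Rik (r = 0.94). The correlations rest on the same 12 arrays and carry no p. On the probe set with that correlation Ep400 read 5.36, 5.50 and 5.35 in mutant saline, against 5.15, 5.05 and 5.14 in control saline, without overlap. A second Ep400 probe set gave r = -0.03 and a saline difference of -0.16 ± 1.68. Its levels ran from 3.75 to 8.14, too wide a spread to bear out or contradict the pattern. Smim27 read 5.41, 5.37 and 5.27 in mutant saline, against 5.13, 4.98 and 5.09 in control saline, also without overlap. Mutant saline lay wholly above control saline on 29% of the 3541 probe sets and on 54.5% of the _r_at ones. Apart from Wnt10b, whose probe set ends in _f_at, all of these correlations came from _r_at probe sets.

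**Figure D3:**
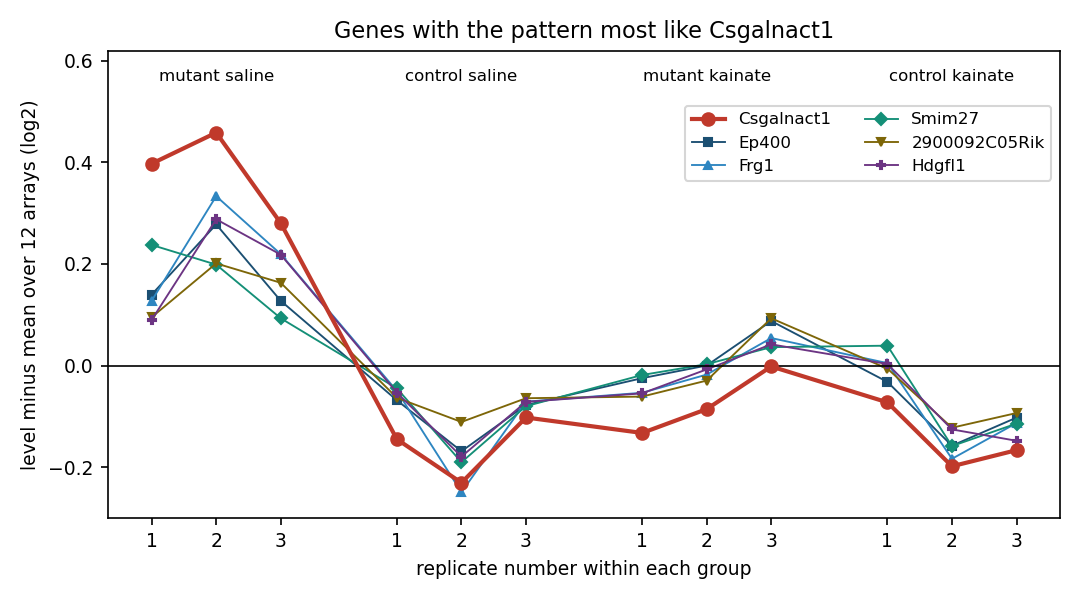
Level minus its own mean over the 12 arrays (log2) for Csgalnact1 and the 5 genes with the highest correlation to it; lines join arrays only to guide the eye. All 6 stand highest on the 3 mutant saline arrays, where Csgalnact1 (0.28 to 0.46) departs furthest on each, and on mutant kainate replicate 3 the 5 others lie above 0 while Csgalnact1 lies at 0.

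None of the 20 other measured genes related to chondroitin sulphate passed the test for genotype or for kainate. Only 3 of them belong to chondroitin chain synthesis, and the rest include heparan sulphate enzymes, core proteins and receptors. Csgalnact1 itself was not tested for genotype and did not pass for kainate. Of 138 listed genes in 7 groups, 36 have a probe set on the array and 20 passed the dim filter. In each of the 3 tested comparisons 0 of the 20 passed higher and 0 lower (limma, adjusted over 3541 probe sets), where 0% of all probe sets passed for either genotype contrast and 0.141% for kainate. Csgalnact2, Chsy1, Chsy3, Chpf and Chpf2, the other enzymes that start or lengthen the chain, have no probe set annotated to their symbol alone on this array.

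Among 22 genes of chain synthesis 3 were measured. The median genotype difference of the 3 was 0.01 after saline and -0.02 after kainate, near the 0.04 and -0.03 of all probe sets. Chst11, a chondroitin 4-O-sulphotransferase, read 7.43, 7.002 and 7.35 in mutant saline, against 7.66, 6.95 and 7.13 in control saline. It read 7.77, 6.67 and 5.45 in mutant kainate, against 7.86, 7.13 and 7.13 in control kainate. The genotypes overlapped after saline (0.01 ± 0.50), and the difference after kainate (-0.75 ± 0.50, adjusted p = 0.55) was -0.28 without the 2 kainate arrays of replicate 3. Chst7, a chondroitin 6-O-sulphotransferase, differed by 0.15 ± 0.11 after saline and -0.02 ± 0.11 after kainate. B3galt6, which adds a galactose of the linker shared with heparan sulphate, differed by -0.09 ± 0.11 and 0.17 ± 0.11.

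Donor supply was represented by 2 of 22 genes, both Golgi transporters. Slc35d2, a carrier of nucleotide sugars, differed by 0.10 ± 0.06 after saline and 0.07 ± 0.06 after kainate. Slc35b2, which carries the sulphate donor PAPS, differed by 0.02 ± 0.07 and 0.04 ± 0.07. Of 23 heparan sulphate genes 3 were measured, with a median of -0.22 after saline and -0.14 after kainate. Ext1, a heparan sulphate polymerase, read 3.84, 3.71 and 3.87 in mutant saline, against 4.27, 4.25 and 3.89 in control saline, around the dim level. The mutant arrays all lay below the control arrays, a pattern shared by 5.11% of probe sets (-0.33 ± 0.26, adjusted p = 0.753). Hs3st2, a heparan 3-O-sulphotransferase, differed by -0.22 ± 0.16 and Ndst3, which deacetylates and sulphates the chain, by 0.11 ± 0.15.

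Core proteins that carry chondroitin chains were measured by 4 genes of 23. On the brightest probe set of each all 4 were positive after saline, as were 58.7% of all probe sets, with a median of 0.07 and a range of 0.05 to 0.24. After kainate 1 of the 4 was positive and the median was -0.18. Ncan, the gene of neurocan, read 9.88, 10.22 and 10.18 in mutant saline, against 9.74, 10.19 and 10.16 in control saline, and the groups overlapped (0.06 ± 0.20). Bcan, the gene of brevican, differed by 0.08 ± 0.15 after saline and 0.05 ± 0.15 after kainate on its brighter probe set, and by -0.06 ± 0.55 and -0.53 ± 0.55 on the other, where the kainate value was 0.02 without the 2 kainate arrays of replicate 3. Ptprz1, a receptor phosphatase that bears chondroitin sulphate, differed by 0.05 ± 0.14 after saline on its brightest probe set. After kainate its difference was -0.21 ± 0.14 with all arrays and 0.04 without the 2 kainate arrays of replicate 3. Bgn, the gene of biglycan, differed by 0.24 ± 0.24 after saline, from 0.59 within replicate 1 and 0.07 within replicates 2 and 3.

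Of 16 perineuronal net partners 1 was measured. Hapln4, a link protein that ties lecticans to hyaluronan, read 8.14, 7.75 and 7.87 in mutant saline, against 8.39, 7.91 and 8.09 in control saline, with overlap (-0.21 ± 0.32). It read 8.21, 7.64 and 6.83 in mutant kainate, against 8.47, 8.24 and 7.83 in control kainate (-0.62 ± 0.32, adjusted p = 0.55). Without the 2 kainate arrays of replicate 3 its kainate difference was -0.43. Of 13 receptors and ligands 4 were measured, with medians of -0.003 after saline and -0.20 after kainate. After saline 2 were positive, Rtn4rl2, a Nogo receptor homologue (0.25 ± 0.44), and Rtn4r, the Nogo receptor gene (0.05 ± 0.15). The other 2 were negative, Ptprd, a receptor phosphatase (-0.08 ± 0.18), and Plxna1, a semaphorin co-receptor (-0.05 ± 0.24). After kainate the differences were -0.17 for Rtn4rl2, 0.02 for Rtn4r, -0.23 for Ptprd and -0.30 for Plxna1. Without the 2 kainate arrays of replicate 3 they were 0.34 for Rtn4rl2, 0.11 for Rtn4r, -0.39 for Ptprd and -0.05 for Plxna1. Of 19 breakdown genes 3 were measured. Cemip, a hyaluronan-binding protein gene, differed by -0.09 ± 0.26 after saline and -0.37 ± 0.26 after kainate. Without the 2 kainate arrays of replicate 3 its kainate value was 0.03. Cemip2, of the same family, differed by -0.04 ± 0.19 and 0.02 ± 0.19. Hyal4, in human a chondroitin sulphate hydrolase, read 4.40, 4.51 and 4.41 in mutant saline, against 4.28, 4.18 and 4.29 in control saline (0.19 ± 0.07, adjusted p = 0.385). The mutant arrays all lay above the control arrays, as on 29% of all probe sets and 54.5% of the _r_at ones. Hyal4 was the listed gene whose pattern correlated most with Csgalnact1 (r = 0.85 over 12 arrays, rank 63 of 2386), and its probe set is also an _r_at one.

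**Figure D4:**
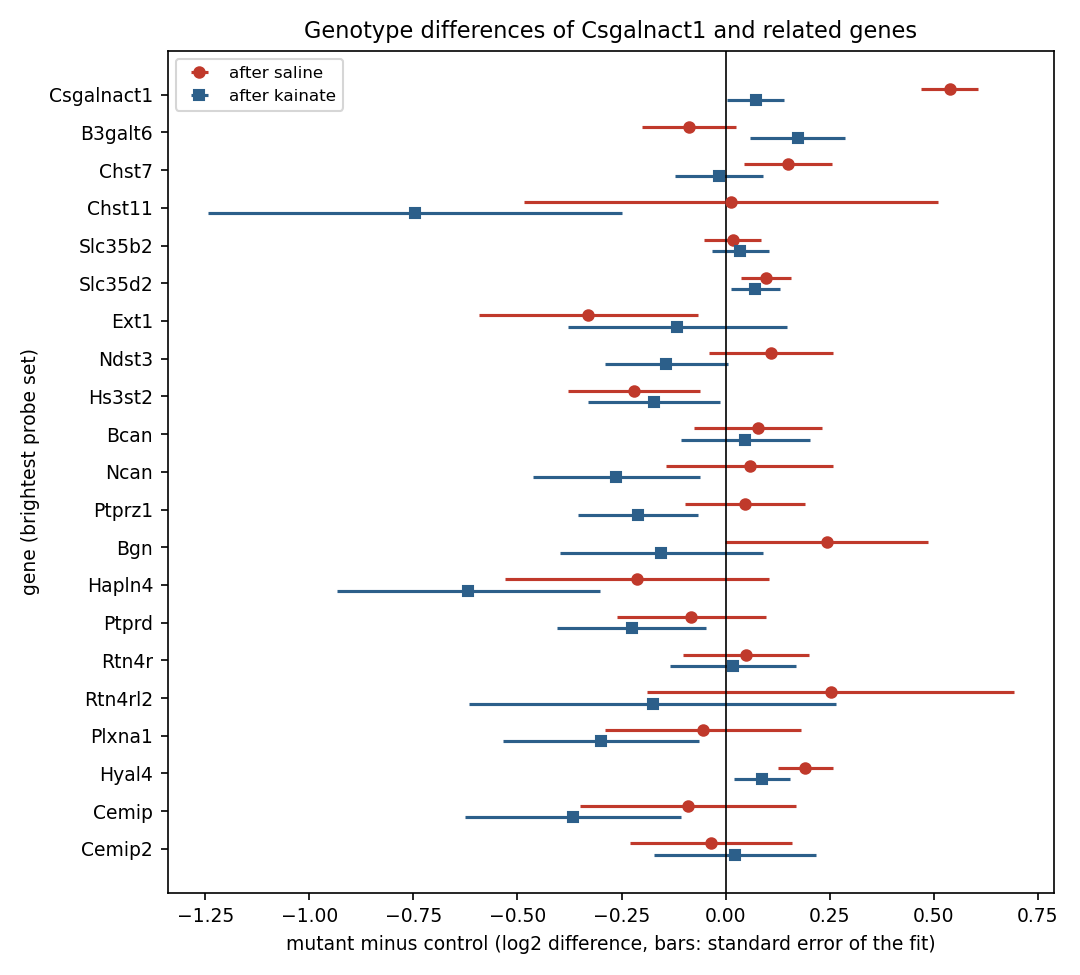
Mutant minus control (log2 difference) after saline and after kainate for Csgalnact1 and the 20 measured pathway genes, brightest probe set of each; bars are the standard error of the fit. Csgalnact1 after saline stands at 0.54, and the pathway genes run from -0.33 (Ext1) to 0.25 (Rtn4rl2) after saline and from -0.75 (Chst11) to 0.17 (B3galt6) after kainate.

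In whole tissue a change in the number of cells of a type and in RNA per cell cannot be told apart. After saline Gfap and the summed microglial markers, which rest mostly on Laptm5, read higher in mutants, as Csgalnact1 did. The other 4 measured astrocyte markers differed by -0.09 to 0.03. The summed astrocyte markers (9 on the array of 20 listed, 5 past the filter) ran from 12.29 to 13.03 (log2 of the sum) in mutant saline and 10.93 to 11.65 in control saline. After kainate they ran from 11.67 to 13.07 in mutants and 11.57 to 13.01 in controls. The astrocyte sum rests on Gfap, which differed by 1.41 ± 0.49 after saline (adjusted p = 0.385). After kainate Gfap differed by 0.47 ± 0.49 with all arrays and by 1.41 without the 2 kainate arrays of replicate 3. Without those arrays the other 4 ran from -0.42 (Slc1a2) to 0.06 (Mlc1) after kainate. After saline the other 4 measured members differed by -0.07 ± 1.34 (Slc1a2), 0.01 ± 0.19 (Apoe), 0.03 ± 0.15 (Mlc1) and -0.09 ± 0.09 (Pla2g7). The Slc1a2 value joins -0.75 within replicate 1 and 0.26 within replicates 2 and 3. The list's median was 0.01, against 0.04 for all probe sets. Microglial markers (4 on the array of 16, 3 past the filter) ran from 10.12 to 10.39 in mutant saline and 9.56 to 9.76 in control saline, and from 9.11 to 10.57 and 9.83 to 10.67 after kainate, mutant before control. Their 3 measured genes were all positive after saline, as were 58.7% of all probe sets, with a median of 0.28, and none passed. Laptm5, the brightest of the 3, weighs most in the microglial sum and differed by 0.67 ± 0.40 after saline. After kainate Laptm5 differed by -0.18 ± 0.40 with all arrays and by 0.61 without the 2 kainate arrays of replicate 3. Without those arrays Cx3cr1 differed by 0.04 and P2ry12 by 0.06 after kainate. After saline Cx3cr1 differed by 0.28 ± 0.52, with overlapping groups, and P2ry12 by 0.14 ± 0.10. The P2ry12 probe set is an _r_at one, a class with a median saline difference of 0.13. Oligodendrocyte markers (5 on the array of 20, 3 past the filter) ran from 9.34 to 9.60 in mutant saline and 9.44 to 9.60 in control saline, with a median difference of -0.06. Oligodendrocyte precursor markers (4 of 14, 2 past the filter) ran from 10.51 to 10.58 in mutant saline and 10.44 to 10.67 in control saline. The part of these cells in the Csgalnact1 difference was not tested. Neuronal markers (4 of 14, 3 past the filter) overlapped between the saline groups, at 9.06 to 9.92 in mutants and 8.98 to 10.03 in controls. The hippocampal label could be checked on few genes, 1 of 4 dentate gyrus and 1 of 2 pyramidal cell markers on the array being past the filter. The actin 3' minus 5' signal, a measure of RNA quality, was 1.74 to 2.00 in mutant saline and 1.74 to 1.92 in control saline, and after kainate 1.61 to 2.44 in mutants and 1.77 to 2.27 in controls. The 2.44 was read on mutant kainate replicate 3.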

How the data were processed

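The authors deposited 1 table of GCRMA values on the log2 scale, made in R 2.4.1 per the submitters' processing notes (GCRMA version not given in the sources used here); they were used as deposited. Of 11934 probe sets, 66 control probe sets were left out and 3541 of the other 11868 cleared the filter (log2 4 or more on 3 or more arrays). Symbols came from the platform annotation, and all 287 names used are in the mouse RefSeq gene table (GRCm38.p6). Groups, taken from the sample titles, entered 1 limma fit (version 3.58.1 under R 4.3.3; functions lmFit, contrasts.fit and eBayes) with 4 group means, no block, and Benjamini-Hochberg over the 3541 probe sets at 0.05. The fit was tested on simulated data. With 3 arrays per group, array number sets the precision.

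Csgalnact1, the gene lists, the comparisons and the rule for naming genes were chosen with earlier results of these data known. Named are Csgalnact1, Creb1, Crem, the measured pathway genes (up to 4 per list with the largest genotype differences, which takes in all 20), the other chain-extending enzymes and the 5 genes most like Csgalnact1 by each of 2 correlations. Glial, neuronal and other markers outside that rule are the fixed cell type lists. In the 10 marker lists 0 genes passed in any of the 3 comparisons.

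Deviations of same-numbered arrays from their group means correlated at 0.855, 0.47 and 0.482 for genotype after saline and 0.578, 0.333 and 0.19 after kainate. For kainate in mutants the correlations were 0.479, 0.0448 and -0.0779. Arrays of different numbers were not compared in this way, so these values cannot show whether the numbers pair the arrays. Alternatives were a replicate block, quantile normalization, array weights, other filters, only the arrays compared, leaving out arrays, and the values within replicate numbers.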

Additional observations from a re-analysis of the deposited data

How the results depend on the processing

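The saline genotype difference of Csgalnact1 (0.54) kept its direction under every alternative on the bright probe set. It ran from 0.50 to 0.59 when any 1 array was left out and was 0.46 with array weights, whose estimation stopped before it converged; on the dim probe set it was -0.069. The kainate genotype difference (0.07) ran from 0.04 to 0.11 without any 1 array, was 0.43 after quantile normalization and -0.060 on the replicate 1 arrays alone. The averaged kainate difference (-0.22) ran from -0.24 to -0.20 without any 1 array, with adjusted p from 0.0915 to 0.643, and passed only with array weights (-0.23, adjusted p = 0.00164). The cause of these moves was not tested. With the replicate number as a block the averaged kainate difference was -0.22 (adjusted p = 0.245), the genotype differences were 0.54 and 0.07, each ± 0.08, and no call changed. Array weights gave 2 probe sets for genotype after saline, 477 after kainate and 1018 for kainate, where the fit without them gave 0, 0 and 5. Without the 2 kainate arrays of replicate 3 the counts were 1 after saline and 9 for kainate, and quantile normalization gave 9 for kainate. Leaving out any 1 array gave 0 to 0 probe sets after saline, 0 to 15 after kainate and 5 to 56 for kainate, both maxima without mutant kainate replicate 1. For the averaged kainate contrast, a fit on only the arrays compared is the fit on all 12. Signal below log2 4 limits what the second probe set of the gene can show.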
